A study of Mus musculus with 38 samples.

Results

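Car9, Car12, Vegfa, Adm, Bnip3, Ndrg1, Ankrd37, Ddit4 and Epo are genes that hypoxia-inducible factors (HIFs) are known to induce and that do not encode enzymes of glycolysis. They were taken by gene symbol, without a threshold on measured values, though the list was drawn up with earlier results of these data known, and all 9 were found among the 21705 genes of the expression table. RNA of 8 of them could be followed in all 10 groups of 38 mouse libraries. Epo was listed at 0 in 36 libraries and is described at the end.

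The libraries came from 3 mouse models of renal cancer and from normal kidney. In MYC mice (genotype MYC+), a doxycycline (Dox) inducible MYC transgene was switched on in renal tubule cells, with the Dox-responsive activator rtTA driven by the Ksp cadherin promoter. VM mice (Vhl-/-; MYC+) also lost Vhl in Ksp-expressing cells through a tamoxifen-inducible Cre, and VIM mice (Vhl-/-; MYC+; Ink-/-/Arf-/-) also lacked Ink4a/Arf in the germline. One cell line of each genotype was used, named MYC-2983, VM-3055 and VIM-3039 after the mouse. Cells were plated with or without Dox at 2 µg/ml and harvested 24 h later, in 4 libraries per condition. The paper grew its tumour-derived lines in medium with Dox at 2 µg/ml and describes the VM-3055 and VIM-3039 contrast as Dox removal. Rises and falls with Dox below are differences from cells plated without it. There were 3 tumour libraries of each genotype, all from animals kept on Dox, and 5 wild-type kidneys given vehicle (2 labelled B6 and 3 labelled KT, terms that the labels do not explain). Ages were not given in the labels. The 3 MYC tumour libraries came from only 2 mice, since mouse 2983 gave 2 of them, and these were averaged before testing. Each line is a single line of its genotype, so genotype and line cannot be told apart. Tumours and kidney differed in Dox as well as in disease, and these cannot be told apart either.

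HIFs are transcription factors made of an oxygen-regulated alpha subunit and a constant beta subunit. In normal oxygen, prolyl hydroxylases (Egln1 to Egln3) mark the alpha subunit, and the VHL protein then targets it for degradation. Loss of VHL, the founding event of most clear cell renal carcinomas, leaves HIF stable in normal oxygen. The genes described here take part in different answers to low oxygen. Car9 and Car12 encode membrane carbonic anhydrases that handle acid, Vegfa and Adm encode secreted signals to blood vessels and Epo the red cell hormone, Bnip3 acts in mitophagy, Ddit4 restrains mTORC1, Ndrg1 is a stress and differentiation gene, and Ankrd37 is a small ankyrin repeat gene.

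Positions are taken from a GENCODE annotation of mm9, whereas the paper quantified reads with UCSC knownGene definitions. The genes lie at chr4:43519838-43526601 (Car9), chr9:66561493-66614652 (Car12), chr17:46153942-46169326 (Vegfa), chr7:117771175-117773331 (Adm) and chr7:146082519-146101202 (Bnip3). The others lie at chr15:66760883-66801202 (Ndrg1), chr8:47082256-47085221 (Ankrd37), chr10:59412423-59414518 (Ddit4) and chr5:137923487-137974470 (Epo). Each is annotated as protein-coding. Gene overlaps given below come from the same GENCODE annotation and do not show how the deposited values were counted.

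Values are the deposited RSEM estimates, scaled by the authors to an upper quartile of 1000 in each library (called units here). The most frequent value below 3 units in a library was taken as 1 read, which put each library at 8215700 to 36578700 estimated reads. On that scale 3 reads, taken as the detection floor, corresponded to 1.16 to 5.65 units. A gene is called changed where limma on log2(units + 1) gave a Benjamini-Hochberg adjusted p below 0.05 over all genes tested and a log2 change beyond 1 in either direction. Every adjusted p below comes from such a fit. Vhl RNA served as the check of genotype. It lay between 8.32 and 38.8 units in the 16 libraries of the VIM-3039 and VM-3055 lines and between 433 and 543 units in MYC-2983 cells. In tissue it was 468 to 560 units in MYC tumours, 40.2 to 79.9 units in VM tumours, 219 to 312 units in VIM tumours and 612 to 772 units in kidney, so VIM tumours kept more Vhl RNA than VM tumours (log2 difference 2.27 ± 0.28 (SE), adjusted p = 0.00148). Myc RNA did not rise with Dox. It was 676 ± 23.8 units with Dox and 1831 ± 45.7 units without in MYC-2983 cells, 384 ± 33.7 and 1364 ± 46.5 units in VM-3055 cells, and 381 ± 34.2 and 1479 ± 65.4 units in VIM-3039 cells (SD, n = 4). It was lower with Dox in every line, with log2 changes of -1.44, -1.83 and -1.96, and higher in every tumour than in every kidney. The sources used here do not say whether reads of the transgene are counted under Myc, so these values do not check MYC activity, and the comparisons below are by Dox label alone. TMM or quantile rescaling moved the median gene by up to 0.21 on the log2 scale in the Dox comparisons. The share of called genes that were higher with Dox was 31.6% for VIM-3039, 23.8% for VM-3055 and 23.0% for MYC-2983 cells. It became 43.0%, 38.9% and 30.9% with TMM and 49.3%, 48.5% and 42.0% with quantile normalization. The S suffixes in the library titles run on from VM-3055 to VIM-3039 cells and start again for MYC-2983 cells. The labels do not say what these suffixes mean, and their part in differences between lines was not tested.

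HIFs bind the core motif ACGTG or GCGTG, so the 250 bases before each RefSeq start (GRCm38.p6) were searched for both on either strand. The RefSeq promoter table held 8 of the 9 genes, with 9 starts because Vegfa has a pair of starts, and Ndrg1 was not matched. ACGTG or its complement CACGT stood in 16.6% of all 32851 promoters, and GCGTG or its complement CACGC in 28.2%. The last 120 bases before the start are shown for 5 genes that carried a match there and for Car12, which carried none in 250 bases. They are printed 5′ to 3′ on the gene's own strand, with every match in capitals.
Car9 (chr4:43506906-43507025, plus strand): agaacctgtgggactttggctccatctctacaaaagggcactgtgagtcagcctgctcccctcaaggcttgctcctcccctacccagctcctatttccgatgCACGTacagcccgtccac
Bnip3 (chr7:138909507-138909626, minus strand): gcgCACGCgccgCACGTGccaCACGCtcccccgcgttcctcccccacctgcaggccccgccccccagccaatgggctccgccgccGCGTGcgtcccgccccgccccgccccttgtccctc
Ankrd37 (chr8:45999851-45999970, minus strand): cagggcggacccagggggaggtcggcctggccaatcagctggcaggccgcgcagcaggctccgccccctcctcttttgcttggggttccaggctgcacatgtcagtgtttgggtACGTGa
Adm (chr7:110627537-110627656, plus strand): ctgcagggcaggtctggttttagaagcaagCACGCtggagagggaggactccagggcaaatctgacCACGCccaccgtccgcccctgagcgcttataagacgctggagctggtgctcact
Ddit4 (chr10:59951771-59951890, minus strand): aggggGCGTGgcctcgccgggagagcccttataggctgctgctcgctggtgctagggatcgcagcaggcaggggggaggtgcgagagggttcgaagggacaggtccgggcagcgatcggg
Car12 (chr9:66713566-66713685, plus strand): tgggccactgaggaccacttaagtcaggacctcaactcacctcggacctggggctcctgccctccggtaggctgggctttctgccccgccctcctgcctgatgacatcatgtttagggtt
Bnip3 held the densest run, with ACGTG read on both strands as the palindrome CACGTG (6.02% of all promoters held CACGTG, which contains ACGTG) and 3 further GCGTG matches. Car9 held 1 ACGTG match that began 18 bases before the start, and Ankrd37 held 2, one of them 6 bases before the start. Outside the stretch shown, Ankrd37 held 2 GCGTG matches and Ddit4 an ACGTG match. The upstream start of Vegfa held none, and the other start held 1 match of each motif. A match is only a run of letters, and no binding was measured.

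**Figure D1:**
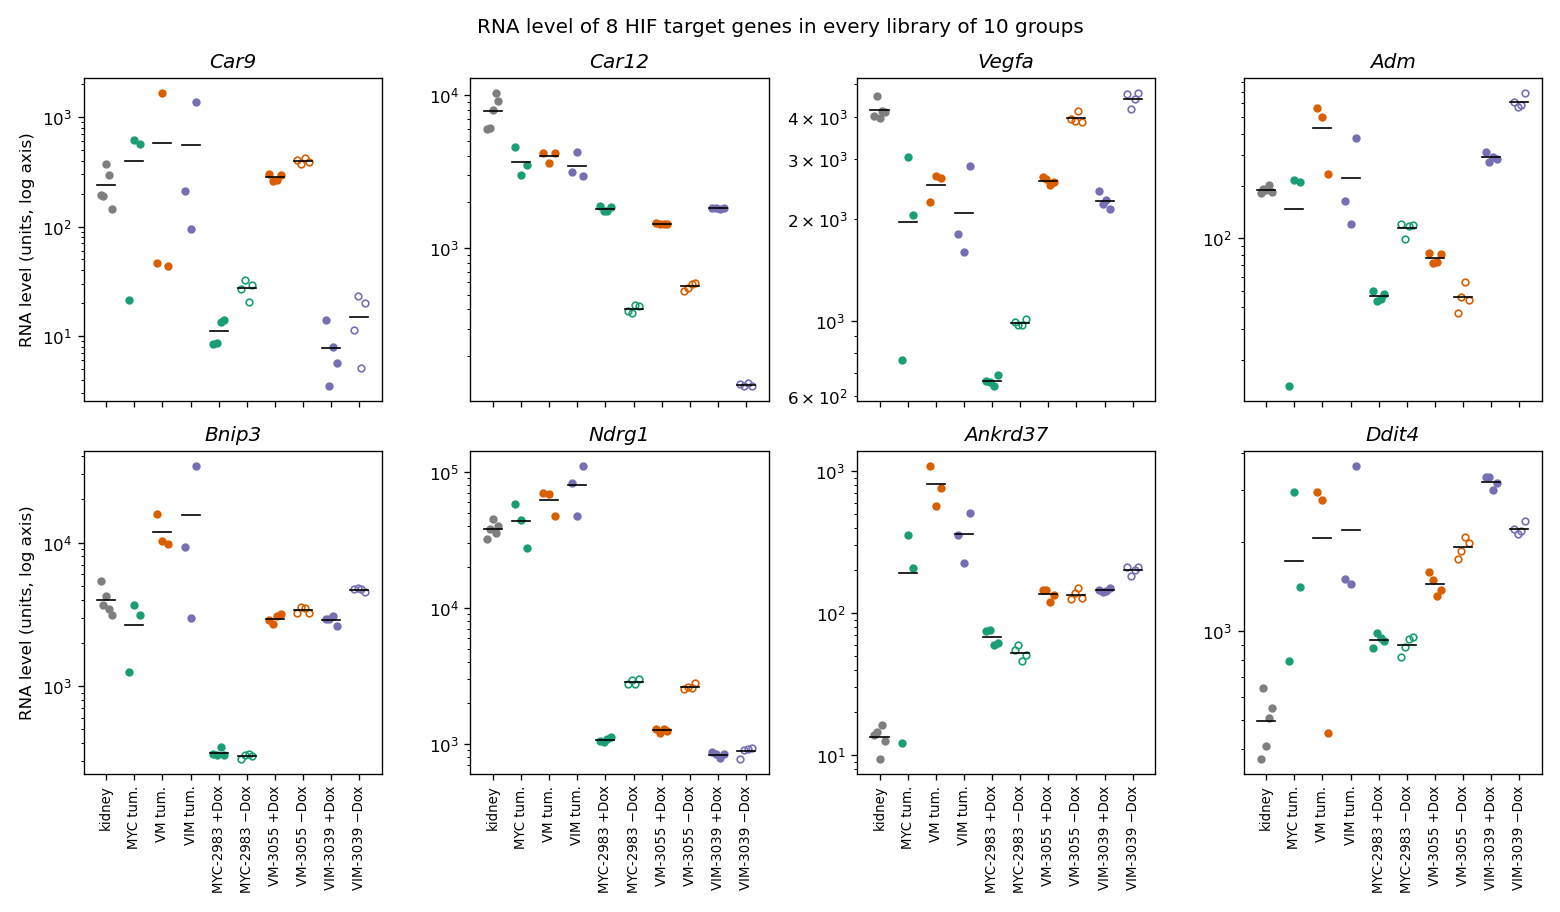
RNA level in units (log axis, a separate scale for each gene) of 8 HIF target genes in every library. Points are libraries (filled with Dox or tissue, open without Dox), and bars are group means. Bnip3 and Vegfa sit higher in both Vhl-deleted lines than in MYC-2983 cells, and Ankrd37 sits lowest in the 5 kidneys apart from 1 MYC tumour.

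The first question was how these genes differed with Dox, the inducer of the MYC transgene, in culture. Car12 was called higher with Dox in all 3 lines, and Ndrg1 and Adm were called lower in 2 lines each and Car9 and Vegfa in 1 line each. Vegfa was lower with Dox in all 3 lines without overlap between libraries, mostly under the size threshold. Car9 was also lower without overlap in VM-3055 cells, again under that threshold. In MYC-2983 cells, 1 member was called higher, against 4.49% of all tested genes, and 3 lower, against 15%. In VM-3055 cells, 1 was higher (all genes 5.92%) and 1 lower (all genes 18.9%). In VIM-3039 cells, 1 was higher (all genes 7.67%) and 2 lower (all genes 16.6%). Of the 8 genes tested, Bnip3, Ankrd37 and Ddit4 were called in none of the lines.

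Car12, which encodes carbonic anhydrase XII on the cell surface, gave the widest response. In MYC-2983 cells it read 1886, 1747, 1749.97 and 1853 units with Dox and 389, 380.3, 425 and 418 units without. In VM-3055 cells it read 1470.5, 1431, 1430.4 and 1432 units with Dox and 529, 549.8, 588 and 596 units without. In VIM-3039 cells it read 1827, 1828, 1817 and 1832 units with Dox and 130.01, 126, 133 and 128 units without. Every library with Dox was above every library without Dox in all 3 lines. The log2 change was 2.16 ± 0.04 (SE), adjusted p = 4.32e-18 in MYC-2983 cells. It was 1.35 ± 0.05 (SE), adjusted p = 6.80e-14 in VM-3055 cells. It was 3.81 ± 0.05 (SE), adjusted p = 6.46e-23 in VIM-3039 cells, the largest change among these genes. With Dox the 3 lines lay within 1430.4 to 1886 units, and without it they lay further apart, where VIM-3039 cells stood at 129 ± 2.89 units (SD, n = 4). Tested directly, the Dox effect in VIM-3039 cells exceeded that in MYC-2983 cells by 1.65 ± 0.06 (SE), adjusted p = 2.41e-15, and that in VM-3055 cells by 2.46 ± 0.06 (SE), adjusted p = 3.02e-18.

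Car9, the carbonic anhydrase IX gene widely used as a marker of HIF activity, moved the other way. MYC-2983 cells had 8.39, 8.70, 13.5 and 14.2 units with Dox and 26.9, 32.2, 20.3 and 29.4 units without. VM-3055 cells had 302, 258, 267 and 298 units with Dox and 404, 376, 419 and 387 units without. VIM-3039 cells had 13.9, 3.47, 7.87 and 5.66 units with Dox and 11.4, 23.4, 5.10 and 19.9 units without, and these groups overlapped. Car9 fell in MYC-2983 cells (log2 change -1.22 ± 0.21 (SE), adjusted p = 4.07e-05), a call lost with quantile normalization (-0.71) and with a pseudocount of 10 (-0.81). In VM-3055 cells the difference was -0.50 ± 0.07 (SE), adjusted p = 5.74e-06, under the size threshold with no overlap between libraries. In VIM-3039 cells the levels were low and the difference, -0.82 ± 0.40 (SE), adjusted p = 0.0692, missed the p threshold, although it was called without Dox-treated library 1 (-1.13) or without untreated library 3 (-1.22).

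Among the vascular signals, Vegfa encodes the main endothelial growth factor. Its levels in MYC-2983 cells were 663, 657, 639 and 689 units with Dox and 990.2, 972, 971 and 1010.3 units without. In VM-3055 cells they were 2659, 2625, 2524 and 2569 units with Dox and 3943, 3898, 4164 and 3878 units without. In VIM-3039 cells they were 2424, 2209, 2268 and 2141 units with Dox and 4672, 4236, 4529.6 and 4709 units without. Libraries with Dox were below those without in each line. The log2 difference was -0.57 ± 0.03 (SE), adjusted p = 1.11e-11 in MYC-2983 cells and -0.61 ± 0.04 (SE), adjusted p = 2.31e-10 in VM-3055 cells. In VIM-3039 cells it was -1.01 ± 0.04 (SE), adjusted p = 9.20e-16, which lies so near the size threshold that the call was lost when any of 4 single libraries was left out (-0.98 to -0.99) and with TMM (-0.85) or quantile (-0.98) rescaling.

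Adm encodes adrenomedullin, a vasodilator peptide. MYC-2983 cells read 49.8, 43.5, 44.97 and 47.7 units with Dox and 120.1, 99.4, 117 and 119 units without. VM-3055 cells read 82.8, 72.3, 73.01 and 80.7 units with Dox and 37.04, 45.8, 55.8 and 44.1 units without. VIM-3039 cells read 313, 276, 293 and 288 units with Dox and 609, 572, 585 and 687 units without. Adm fell with Dox in MYC-2983 cells (log2 change -1.27 ± 0.10 (SE), adjusted p = 1.85e-09), a call lost with quantile normalization (-0.93). It also fell in VIM-3039 cells (-1.06 ± 0.06 (SE), adjusted p = 8.21e-13), where TMM (-0.91) and quantile rescaling (-0.97) ended the call. In VM-3055 cells it was higher with Dox in every library, at 0.76 ± 0.15 (SE), adjusted p = 1.37e-04, below the size threshold but called with quantile normalization (1.38). The Dox effect in VM-3055 cells differed from that in MYC-2983 cells by 2.03 ± 0.17 (SE), adjusted p = 9.69e-09. The effect in VIM-3039 cells differed from that in VM-3055 cells by -1.82 ± 0.15 (SE), adjusted p = 2.60e-09.

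Ndrg1 encodes a cytoplasmic protein linked to differentiation and stress, a gene that N-myc and MYC are known to repress. MYC-2983 cells read 1058, 1034, 1095 and 1117 units with Dox and 2734, 2969.5, 2773 and 3003 units without. VM-3055 cells read 1288, 1212, 1290.3 and 1250.00 units with Dox and 2553, 2599, 2569 and 2813 units without. VIM-3039 cells read 869, 839, 788 and 844 units with Dox and 772, 904, 913 and 938 units without, with overlap. Ndrg1 fell in MYC-2983 cells (-1.41 ± 0.03 (SE), adjusted p = 9.03e-17) and in VM-3055 cells (-1.06 ± 0.04 (SE), adjusted p = 4.13e-13), where TMM rescaling ended the call (-0.85). In VIM-3039 cells the difference was -0.08 ± 0.05 (SE), adjusted p = 0.201, with a 95% interval of -0.19 to 0.03, and TMM rescaling turned its sign (0.076). The effect in VIM-3039 cells differed from that in MYC-2983 cells by 1.34 ± 0.07 (SE), adjusted p = 1.28e-12, and from that in VM-3055 cells by 0.99 ± 0.07 (SE), adjusted p = 7.88e-10, just under the size threshold and over it (1.001 to 1.018) without any 1 of 4 single libraries. Gm17035 and Gm2895 overlap Ndrg1 on the other strand.

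The remaining genes moved by less than 1 on the log2 scale. Bnip3, a mitochondrial receptor for mitophagy, read 335, 331, 377 and 332 units with Dox and 309.7, 332, 339 and 325 units without in MYC-2983 cells. In VM-3055 cells Bnip3 read 2874, 2691, 3074 and 3165 units with Dox and 3257, 3569.99, 3498 and 3238 units without. In VIM-3039 cells Bnip3 read 2929.9, 2943, 3087 and 2644 units with Dox and 4742, 4800.4, 4781 and 4523 units without. The Bnip3 libraries separated fully in the 2 lines without Vhl and overlapped in MYC-2983 cells. The Bnip3 difference was 0.07 ± 0.05 (SE), adjusted p = 0.213 in MYC-2983 cells, -0.20 in VM-3055 cells (adjusted p = 0.00233, with the sign turned to 0.011 by TMM rescaling) and -0.70 in VIM-3039 cells (adjusted p = 3.98e-13).

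Ddit4, which encodes the mTORC1 inhibitor REDD1, gave a different sign in each Vhl-deleted line. It read 874, 985, 945 and 926 units with Dox and 819.6, 879.8, 940.4 and 953 units without in MYC-2983 cells. In VM-3055 cells Ddit4 read 1585, 1486, 1318 and 1379 units with Dox and 1746, 1872, 2088 and 1989 units without. In VIM-3039 cells Ddit4 read 3324, 3328, 3003 and 3156 units with Dox and 2217, 2124, 2174 and 2358 units without. The VM-3055 libraries with Dox were all lower and the VIM-3039 libraries with Dox all higher. The log2 differences were 0.06, -0.42 and 0.53 in the same order, with adjusted p of 0.284, 8.32e-06 and 3.87e-11. Ankrd37 read 74.9, 76.1, 59.6 and 61.8 units with Dox and 55.1, 59.9, 45.7 and 50.6 units without in MYC-2983 cells. In VM-3055 cells Ankrd37 read 146, 145, 119.7 and 133 units with Dox and 125, 138, 149.6 and 128 units without. In VIM-3039 cells Ankrd37 read 146, 140.03, 143 and 149 units with Dox and 212, 184, 202 and 212 units without. Only in VIM-3039 cells were the Ankrd37 libraries with Dox all lower, and the differences were 0.36, 0.01 and -0.48, with adjusted p of 0.0139, 0.953 and 2.10e-05. Ankrd37 shares its locus with Lrp2bp and Ufsp2 on the other strand.

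**Figure D2:**
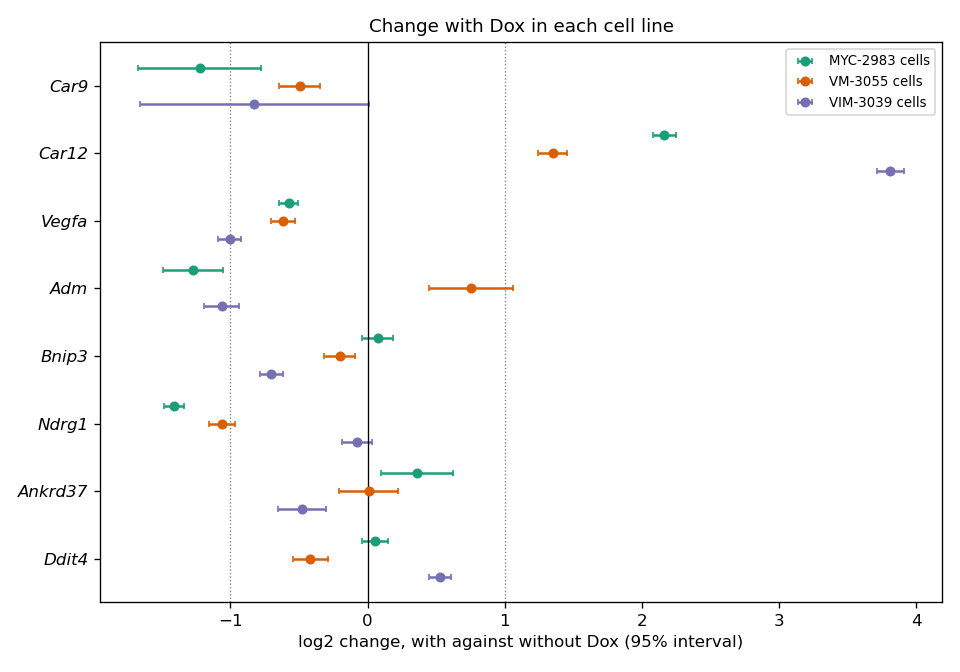
Change in RNA level with Dox in each of the 3 cell lines, as log2 of units + 1, for 8 genes. Points are the limma estimates from 4 libraries per condition, bars are 95% intervals, and dotted lines mark a log2 change of 1 in either direction. Car12 lies to the right in all 3 lines, at 2.16, 1.35 and 3.81, and Adm lies to the right in VM-3055 cells alone.

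In the 3 tests of whether Dox acted differently between lines, the members called were 1 higher in VM-3055 against MYC-2983 cells (Adm, all genes 3.26%), 2 higher in VIM-3039 against MYC-2983 cells (Car12 and Ndrg1, all genes 4.54%), and 1 higher (Car12, all genes 3.70%) and 1 lower (Adm, all genes 2.35%) in VIM-3039 against VM-3055 cells. With quantile normalization Ankrd37 also passed, lower in VIM-3039 than in MYC-2983 cells (-1.10). These tests share libraries, so they are not independent of each other.

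The second question was how lines with and without Vhl differed. Vegfa and Bnip3 were higher in both lines without Vhl than in MYC-2983 cells in either Dox state. Car9 was higher in VM-3055 cells alone, Adm was far higher in VIM-3039 cells, and Car12 and Ndrg1 were lower in VIM-3039 cells without Dox. In VM-3055 cells with Dox, 3 members were called higher than in MYC-2983 cells, against 6.54% of all genes. Without Dox, 5 were higher (all genes 8.36%) and 1 lower (all genes 16.6%). In VIM-3039 cells with Dox, 5 were higher than in MYC-2983 cells (all genes 5.66%). Without Dox, 5 were higher (all genes 6.88%) and 2 lower (all genes 19.3%). All 4 comparisons share the MYC-2983 libraries of their Dox state.

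Bnip3 was higher in all 4 comparisons, with no overlap between libraries. It was 344 ± 22.2 units in MYC-2983 cells with Dox (SD, n = 4) and 2951 ± 212 units in VM-3055 cells with Dox. It was 2901 ± 186 units in VIM-3039 cells with Dox. The log2 difference from MYC-2983 cells with Dox was 3.10 ± 0.05 (SE), adjusted p = 1.40e-14 in VM-3055 cells and 3.07 ± 0.05 (SE), adjusted p = 2.57e-15 in VIM-3039 cells. Without Dox it was 3.37 ± 0.05 (SE), adjusted p = 2.69e-16 and 3.85 ± 0.03 (SE), adjusted p = 2.21e-18 in the same order. Every library of the lines without Vhl read at least 2644 units and every MYC-2983 library at most 377 units. Vegfa followed the same order with smaller steps, at 1.97 and 1.77 with Dox and 2.01 and 2.20 without, on the log2 scale, with adjusted p from 3.41e-16 to 3.84e-14.

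Car9 separated the 2 lines without Vhl from each other. VM-3055 cells exceeded MYC-2983 cells by 4.57 ± 0.17 (SE), adjusted p = 1.66e-11 with Dox and by 3.84 ± 0.13 (SE), adjusted p = 2.95e-12 without. VIM-3039 cells did not, with -0.59 ± 0.33 (SE), adjusted p = 0.119 with Dox and -0.99 ± 0.35 (SE), adjusted p = 0.0197 without, signs that quantile normalization turned to 0.56 and 0.028. Leaving out 1 of 3 single libraries (VIM-3039 without Dox library 2 or 4, or MYC-2983 without Dox library 3) made the latter a call, at -1.26, -1.18 and -1.12. Tested directly, Car9 in VIM-3039 cells was below VM-3055 cells, with log2 differences of -5.15 ± 0.26 (SE), adjusted p = 4.01e-11 with Dox and -4.82 ± 0.30 (SE), adjusted p = 4.41e-10 without. Car9 overlaps Gm12454 on the other strand.

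Adm showed the reverse order. It was higher in VIM-3039 than in VM-3055 cells by 1.91 ± 0.09 (SE), adjusted p = 7.25e-12 with Dox and by 3.73 ± 0.11 (SE), adjusted p = 4.67e-14 without. Against MYC-2983 cells, VIM-3039 cells were higher by 2.63 ± 0.08 (SE), adjusted p = 1.27e-12 with Dox and 2.42 ± 0.08 (SE), adjusted p = 6.59e-13 without. VM-3055 cells without Dox were lower than MYC-2983 cells (-1.31 ± 0.13 (SE), adjusted p = 5.22e-07), a call lost with quantile normalization (-0.83), while with Dox the difference was 0.72 ± 0.11 (SE), adjusted p = 4.80e-05, a call only with quantile normalization (1.502).

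Ankrd37 and Ddit4 were higher in the lines without Vhl in most comparisons. For Ankrd37 the log2 difference from MYC-2983 cells was 1.34 ± 0.11 (SE), adjusted p = 7.06e-08 in VM-3055 cells without Dox. It was 1.08 ± 0.10 (SE), adjusted p = 1.83e-07 with Dox and 1.92 ± 0.11 (SE), adjusted p = 3.30e-10 without in VIM-3039 cells. In VM-3055 cells with Dox it was 0.99 ± 0.11 (SE), adjusted p = 2.07e-06, just under the size threshold, and it passed with TMM (1.13), with quantile normalization (1.60) and without any of 3 single libraries (1.04 to 1.05). With a pseudocount of 10 the VIM-3039 difference with Dox fell to 0.99. For Ddit4 the difference was 1.78 ± 0.04 (SE), adjusted p = 6.21e-14 in VIM-3039 cells with Dox and 1.30 ± 0.05 (SE), adjusted p = 2.34e-12 without. In VM-3055 cells it was 1.10 ± 0.06 (SE), adjusted p = 6.55e-10 without Dox and 0.63 ± 0.05 (SE), adjusted p = 1.16e-07 with Dox. Ddit4 was also higher in VIM-3039 than in VM-3055 cells with Dox (1.15 ± 0.05 (SE), adjusted p = 6.06e-12).

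Car12 and Ndrg1 differed most without Dox. Car12 in VIM-3039 cells was lower than in MYC-2983 cells (log2 difference -1.63 ± 0.06 (SE), adjusted p = 4.80e-12) and lower than in VM-3055 cells (log2 difference -2.12 ± 0.07 (SE), adjusted p = 1.07e-13). With Dox, Car12 differed from MYC-2983 cells by 0.01 in VIM-3039 cells (95% interval -0.05 to 0.08) and by -0.33 in VM-3055 cells (95% interval -0.40 to -0.26). Ndrg1 in VIM-3039 cells without Dox was lower than in MYC-2983 cells (log2 difference -1.70 ± 0.05 (SE), adjusted p = 5.60e-13) and lower than in VM-3055 cells (log2 difference -1.58 ± 0.06 (SE), adjusted p = 4.29e-13). Between VIM-3039 and VM-3055 cells, the members called were 2 higher (Adm and Ddit4, all genes 9.69%) and 1 lower (Car9, all genes 9.45%) with Dox, and 1 higher (Adm, all genes 9.21%) and 3 lower (Car9, Car12 and Ndrg1, all genes 12.5%) without.

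Summed markers of other cell types also moved in culture, and their part in the results was not tested. The 7 endothelial markers came to 1.70 to 31.6 units in the cell libraries. The 8 fibroblast and pericyte markers summed to 736 to 832 units with Dox and 1763 to 1987 units without in MYC-2983 cells, to 533 to 582 and 1737 to 1922 units in VM-3055 cells, and to 458 to 473 and 875 to 929.8 units in VIM-3039 cells. Of these, Rgs5 was listed at 0 in all cell groups but untreated VIM-3039 cells. The 7 leukocyte markers summed to 557 to 619 units with Dox and 1307 to 1383 units without in MYC-2983 cells, to 467 to 531 and 1143 to 1212 units in VM-3055 cells, and to 516 to 549 and 599 to 681 units in VIM-3039 cells. Emr1, which encodes the macrophage antigen F4/80, was listed at 0 in all 24 cell libraries. These lists were lower with Dox in each line. The 4 podocyte markers Nphs1, Podxl, Wt1 and Synpo summed to 3766 to 3962 units with Dox and 2455 to 2526 units without in MYC-2983 cells, to 4258 to 4518 and 3398 to 3664 units in VM-3055 cells, and to 1882 to 1947 and 569.7 to 629.6 units in VIM-3039 cells. The sum of this list was higher with Dox in each line, with Nphs1 listed at 0 in all cell libraries. Its genes differed in direction. Podxl averaged 3536 units with Dox and 1221 without in MYC-2983 cells, and 1874 and 473 units in VIM-3039 cells. Synpo went the other way, at 334 and 1273 units in MYC-2983 cells. It averaged 88.5 and 1002 units in VM-3055 cells and 28.9 and 121 units in VIM-3039 cells. The 7 distal nephron markers summed to 8375 to 9661 units with Dox and 12422 to 13147 units without in MYC-2983 cells, to 3468 to 3514 and 8919 to 9236 units in VM-3055 cells, and to 3697 to 3714 and 7115 to 7677 units in VIM-3039 cells. The 7 proximal tubule markers summed to 4546 to 5523 units with Dox and 6651 to 7889 units without in MYC-2983 cells, to 4142 to 5559 and 5532 to 8265 units in VM-3055 cells, and to 3805 to 4428 and 4153 to 4912 units in VIM-3039 cells. Calb1, a distal marker, was listed at 0 in all cell groups. Only 1 or 2 of the 7 distal nephron markers, by cell group, were above the floor in all libraries of the group. For the 7 proximal tubule markers the number was 3 in each cell group. These sums therefore rest on few genes and do not describe a whole tubule program.

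**Figure D3:**
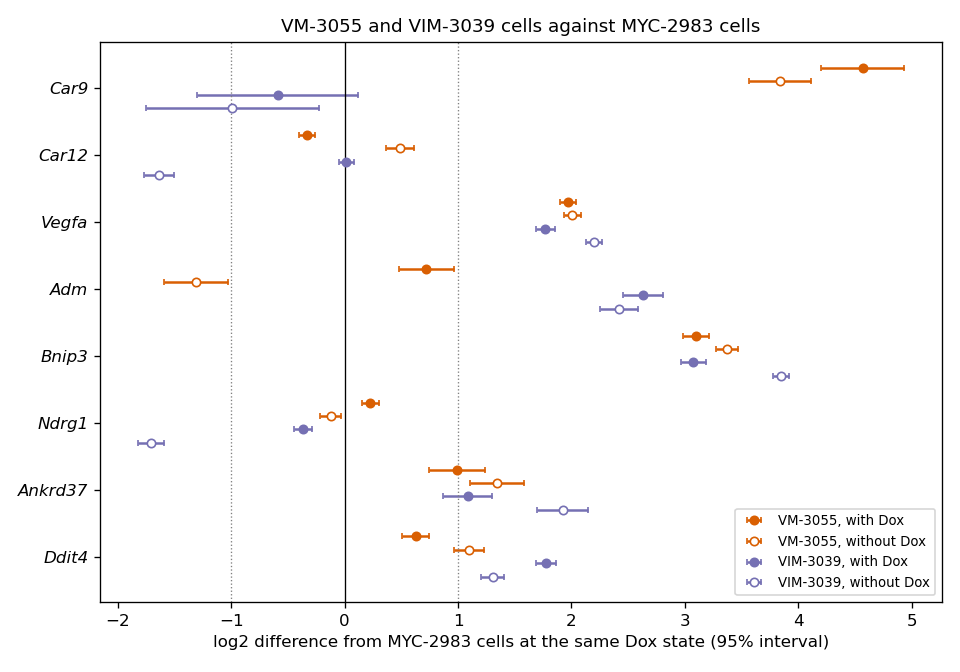
Log2 difference in RNA level (units + 1) of VM-3055 and VIM-3039 cells from MYC-2983 cells in the same Dox state, for 8 genes. Points are limma estimates (filled with Dox, open without), bars are 95% intervals, and dotted lines mark 1 in either direction. Bnip3 and Vegfa lie to the right in all 4 comparisons, and Car9 does so in VM-3055 cells alone.

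The third question was how tumours differed from normal kidney. Ankrd37 and Ddit4 were called higher in VM and VIM tumours and Bnip3 in VM tumours, and Vegfa and Car12 were called lower in MYC and VIM tumours. A missing call is not a lack of difference. All VM tumours also lay below all kidneys for Vegfa and Car12, and all MYC tumours above all kidneys for Ddit4. In MYC tumours, 2 members were called lower, against 16.2% of all genes. In VM tumours, 3 were called higher, against 16.5%. In VIM tumours, 2 were higher (all genes 18%) and 2 lower (all genes 19.3%). These are bulk tissues, in which fewer cells of a type and less RNA per cell cannot be told apart, and the 3 comparisons share the 5 kidneys. Cell markers moved with these comparisons. The 7 proximal tubule markers summed to 208171 to 241016 units in kidney and to 1782 to 10543 units in tumours, and the 7 distal nephron markers to 91071 to 188676 units and 6598 to 17539 units. The 7 endothelial markers summed to 3996 to 6837 units in kidney and 256 to 2409 units in tumours, and the 7 leukocyte markers to 991 to 2140.4 units and 1957 to 7494 units. The 4 podocyte markers summed to 3149 to 8724 units in kidney and 806 to 3488 units in tumours, with Nphs1 listed at 0 in VM tumours. The 8 fibroblast and pericyte markers summed to 4233 to 6543 units in kidney and 3932 to 13944 units in tumours. The part of cell makeup in the results below was not tested.

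Ankrd37 gave the clearest separation. Kidneys read 13.8, 14.6, 9.37, 16.3 and 12.7 units. VM tumours read 1092, 570.1 and 763 units and VIM tumours 354, 227 and 507 units, all far above every kidney. MYC tumours read 12.1, 355 and 208 units, where the first, from mouse 2917, lay among the kidneys and the others, from mouse 2983, far above them. The log2 difference from kidney was 5.79 ± 0.72 (SE), adjusted p = 2.62e-05 in VM tumours and 4.61 ± 0.72 (SE), adjusted p = 1.73e-04 in VIM tumours. In MYC tumours it was 2.08 ± 0.82 (SE), adjusted p = 0.0581, and without mouse 2917 it was 4.27. It passed with quantile normalization (2.32) and with each library of mouse 2983 entered by itself (2.81), and without mouse 2983 the sign turned (-0.11).

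Ddit4 read 369, 642, 409.6, 507 and 548 units in kidney. It read 792, 2963 and 1412 units in MYC tumours, 2964, 2777 and 453 units in VM tumours and 1501, 1444 and 3622 units in VIM tumours. The MYC and VIM tumours were all above the kidneys, while the VM tumour of mouse 2459 lay among them. The log2 difference was 1.67 ± 0.56 (SE), adjusted p = 0.0235 in VM tumours and 2.03 ± 0.56 (SE), adjusted p = 0.00855 in VIM tumours. In MYC tumours it was 1.39 ± 0.64 (SE), adjusted p = 0.0984, which passed with each library of mouse 2983 entered by itself (1.62) and in a fit of only the 2 groups compared (1.39). The VM call was lost without the tumour of mouse 3115 (1.21) or of mouse 3055 (1.25), its value was 2.56 without that of mouse 2459, and the VIM call without that of mouse 3130 (1.60, adjusted p = 0.0509). In VM tumours the call was also lost against kidneys labelled B6 alone (1.99) or KT alone (1.46), but leaving out any single kidney kept it.

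Bnip3 read 5358, 3672, 4257, 3459 and 3135 units in kidney. It read 1257, 3685 and 3120.1 units in MYC tumours, 15691, 10235 and 9792 units in VM tumours and 9284, 2975 and 34274 units in VIM tumours. All VM tumours exceeded all kidneys, whereas the VIM tumours ran from below every kidney to the highest value of the series. The log2 difference was 1.57 ± 0.58 (SE), adjusted p = 0.0391 in VM tumours, a call that was lost without any 1 of the 3 VM tumours (1.36 to 1.70) or any 1 of 4 kidneys (1.49 to 1.61), and against kidneys labelled B6 (1.28) or KT (1.77) alone. In VIM tumours it was 1.33 ± 0.58 (SE), adjusted p = 0.0758, which passed with quantile normalization (1.46) and without the tumour of mouse 3233 (2.19), and was 0.43 without that of mouse 3130. In MYC tumours it was -0.92 ± 0.67 (SE), adjusted p = 0.297.

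Vegfa was high in normal kidney, at 4021, 4626, 3972, 4168 and 4144 units. MYC tumours read 765, 3057 and 2051 units, VM tumours 2239.7, 2680.4 and 2634 units and VIM tumours 1809.8, 1594 and 2858 units. Every tumour was below every kidney. The log2 difference was -1.59 ± 0.35 (SE), adjusted p = 0.00257 in MYC tumours, -0.74 ± 0.30 (SE), adjusted p = 0.0595 in VM tumours and -1.05 ± 0.30 (SE), adjusted p = 0.0114 in VIM tumours. The MYC call was lost without mouse 2917 (-0.74), while without both libraries of mouse 2983 the value was -2.45, and the VIM call without mouse 3237 (-0.97) or 3233 (-0.88), with quantile normalization (-0.86) and against B6 kidneys alone (-0.98).

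Car12 was likewise highest in kidney, at 5983, 6083, 7957, 10259 and 9137 units. MYC tumours read 4548, 3006 and 3476 units, VM tumours 4161, 3609 and 4187 units and VIM tumours 3151, 4242 and 2944 units, again with no overlap with kidney. The log2 difference was -1.01 ± 0.25 (SE), adjusted p = 0.00559 in MYC tumours, -0.95 ± 0.22 (SE), adjusted p = 0.00248 in VM tumours and -1.18 ± 0.22 (SE), adjusted p = 5.92e-04 in VIM tumours. These values sit close to the size threshold. The MYC call was lost without the second MYC tumour library, from mouse 2983 (-0.95), without both libraries of that mouse (-0.76), without kidney 3, 4 or 5 (-0.99, -0.90 and -0.95), against B6 kidneys alone (-0.85), with voom on recovered reads (-0.9994, just inside the threshold) and with quantile normalization (-0.47). The VIM call was lost with quantile normalization (-0.78). The VM difference became a call without kidney 1 (-1.05) or 2 (-1.04) and against KT kidneys alone (-1.06).

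Car9, Adm and Ndrg1 passed the test in no tumour type. Car9 read 196, 191, 371, 296 and 145 units in kidney, 21.5, 611 and 564 units in MYC tumours, 46.6, 1652 and 43.2 units in VM tumours and 213, 95.2 and 1355 units in VIM tumours. The VM tumour of mouse 3055 read 38.3 times the lowest VM tumour, and the log2 differences from kidney, -0.99, -0.59 and 0.41 for MYC, VM and VIM tumours, had 95% intervals of -4.10 to 2.13, -3.31 to 2.13 and -2.31 to 3.14. These intervals are wide enough to hold several-fold changes in either direction. Adm read 183, 191, 190.1, 204 and 186 units in kidney, 13.99, 216 and 210.5 units in MYC tumours, 565, 501 and 234 units in VM tumours and 164, 120.3 and 379.99 units in VIM tumours. All VM tumours exceeded all kidneys for Adm, with a log2 difference of 1.08 ± 0.66 (SE), adjusted p = 0.197, which passed only in a fit of the 2 groups alone (adjusted p = 0.00769). In MYC tumours the Adm difference was -1.76 ± 0.76 (SE), adjusted p = 0.0798, but without mouse 2917 it turned to 0.16, and without mouse 2983 it was -3.68. In VIM tumours it was 0.04, a value whose sign turned with TMM rescaling (-0.0403) and with voom (-0.028). Ndrg1 read 31989.6, 37750.3, 45132, 35715 and 40029 units in kidney, 57569.9, 44123 and 27713 units in MYC tumours, 70237, 68262 and 47164 units in VM tumours and 82714, 47048 and 110403 units in VIM tumours. All VM and VIM tumours exceeded all kidneys for Ndrg1. The log2 difference was 0.24 ± 0.40 (SE), adjusted p = 0.665 in MYC tumours and 0.69 ± 0.35 (SE), adjusted p = 0.125 in VM tumours, and 0.99 ± 0.35 (SE), adjusted p = 0.032 in VIM tumours, just under the size threshold. The VIM value passed with quantile normalization (1.56), with voom (1.01), without the tumour of mouse 3233 (1.34) and without kidney 3 (1.06) or 5 (1.01). Ndrg1 also passed with quantile normalization in MYC (1.28) and VM (1.63) tumours.

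**Figure D4:**
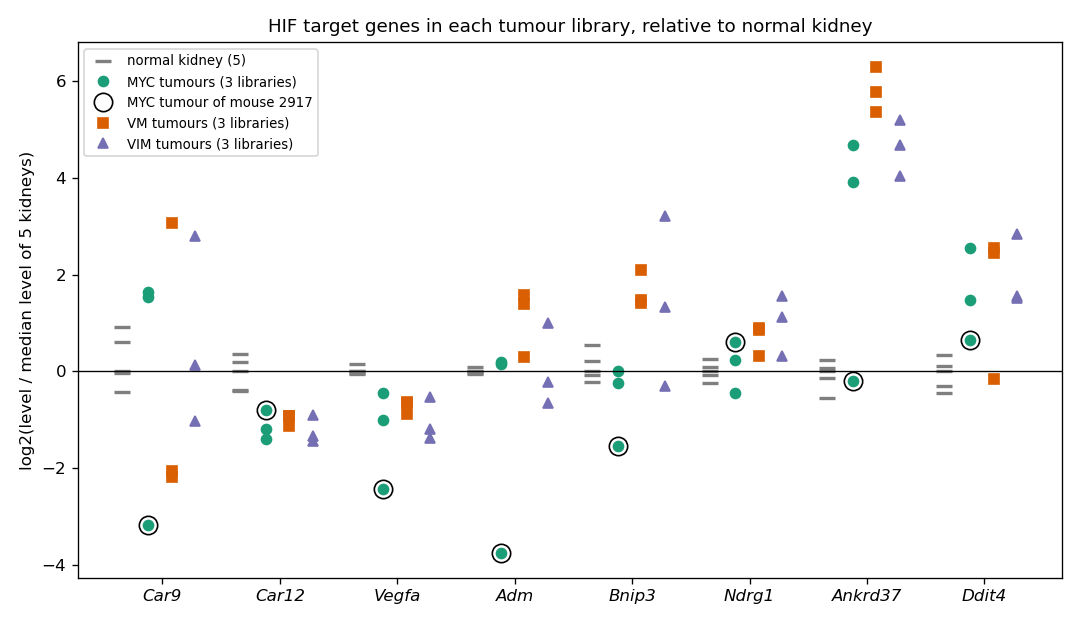
Log2 ratio of each tumour library to the median of the 5 normal kidneys, for 8 genes, with the kidneys as grey dashes. Each symbol is 1 library, and black rings mark the MYC tumour of mouse 2917. Ankrd37 lies above the kidneys in all tumours but that of mouse 2917, and all tumours lie below 0 for Vegfa and Car12.

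The tumour types were then compared with each other. No member was called in VM against MYC tumours, where 1.97% of all genes were called in either direction, in VIM against MYC tumours (3.91%) or in VIM against VM tumours (2.79%), by limma. At an unadjusted p below 0.05 the counts were 4, 3 and 0 of 8, and voom on recovered reads called 1, 0 and 0. The nearest were Ankrd37 in VM against MYC tumours (3.71 ± 0.90 (SE), adjusted p = 0.0533), Bnip3 in VIM against MYC tumours (2.25 ± 0.73 (SE), adjusted p = 0.0894) and Adm and Bnip3 in VM against MYC tumours (2.84 and 2.49, adjusted p of 0.102 and 0.103). The Ankrd37 difference passed with a minimum mean of 10 units (3.71), TMM (3.82), quantile normalization (3.76), voom (3.55) and without the second MYC tumour library (3.90). Bnip3 in VM against MYC tumours passed with quantile normalization (2.71), and in VIM against MYC tumours without mouse 3233 (3.11). Without mouse 2917 the VM against MYC difference was 1.52 for Ankrd37, 0.92 for Adm and 1.78 for Bnip3, and the VIM against MYC difference of Bnip3 was 1.53 (1.35 without the VIM tumour of mouse 3130), none of them called. The calls over all genes also rested on single libraries, with 122 to 527 of them in VM and 105 to 2149 in VIM against MYC tumours when 1 library was left out. The MYC side of these comparisons rested on 2 mice that differed. For 5 of the 8 genes the tumour of mouse 2917 had the lowest value of all 9 tumours, and for the others it did not. Mouse 2917 as the only MYC tumour was an alternative chosen after seeing the data. The VM against MYC differences of Vegfa, Adm and Ankrd37 were then 1.71, 4.76 and 5.90, and the VIM against MYC differences 1.40, 3.71 and 4.72. All 3 genes were among those lowest in that mouse, so these values cannot show how MYC tumours differ from the others. The VIM tumour of mouse 3130 had the highest value for 3 genes and one of the 2 highest for 5.

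Other HIF targets outside glycolysis gave a wider view. A list of 38 such genes in the table was tested in the same fits. With Dox, 2 of 38 rose and 12 fell in MYC-2983 cells, 1 of 35 tested rose and 11 fell in VM-3055 cells, and 1 of 37 rose and 14 fell in VIM-3039 cells. Of all genes, 4.49% rose and 15% fell in MYC-2983, 5.92% and 18.9% in VM-3055, and 7.67% and 16.6% in VIM-3039 cells. The medians were -0.79, -0.63 and -0.77 on the log2 scale, beside -0.13, -0.26 and -0.15 over all genes tested. Tfrc, the transferrin receptor and also a known MYC target, rose in VIM-3039 cells (1.43 ± 0.04 (SE), adjusted p = 6.50e-19) and in VM-3055 cells (1.14 ± 0.06 (SE), adjusted p = 5.98e-12). Edn1, which encodes the vasoconstrictor endothelin 1, fell in VIM-3039 cells (-3.41 ± 0.08 (SE), adjusted p = 3.77e-19). In MYC-2983 cells the 2 genes that rose were Egln3 (1.31 ± 0.10 (SE), adjusted p = 8.49e-10) and Mxi1 (1.19 ± 0.03 (SE), adjusted p = 2.73e-16). Mxi1 encodes a MAX-binding antagonist of MYC.

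Between lines, this list had calls in both directions, with medians above that of all genes tested. In VM-3055 against MYC-2983 cells, 6 of 37 were higher and 6 lower with Dox, and 8 of 37 higher and 7 lower without, beside 6.54% higher and 18.1% lower of all genes with Dox and 8.36% and 16.6% without. The medians were 0.33 with Dox and 0.23 without, against -0.19 and -0.10 over all genes. In VIM-3039 against MYC-2983 cells, 13 of 38 were higher and 5 lower with Dox, and 12 of 37 higher and 4 lower without, beside 5.66% higher and 18.3% lower of all genes with Dox and 6.88% and 19.3% without. The medians were 0.36 and 0.47, against -0.18 and -0.20 over all genes. Egln3, the HIF prolyl hydroxylase that HIF itself induces, gave the largest rise in each, with 4.44 ± 0.05 (SE), adjusted p = 1.26e-16 in VM-3055 cells with Dox and 3.45 ± 0.05 (SE), adjusted p = 1.02e-15 in VIM-3039 cells with Dox. Tgfa, a ligand of the EGF receptor, was higher in VM-3055 cells with Dox (3.20 ± 0.13 (SE), adjusted p = 6.32e-11). Lox, which encodes a collagen cross-linking oxidase, averaged 0.219 units, a level below the floor, in Dox-treated VM-3055 cells and 1489 units in MYC-2983 cells with Dox.

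In tissue, 11 of the 38 were higher and 4 lower in MYC tumours than in kidney, and 16 higher and 4 lower in both VM and VIM tumours. Of all genes, 16.8% were higher and 16.2% lower in MYC tumours, 16.5% and 21.2% in VM tumours, and 18% and 19.3% in VIM tumours. The medians were 0.38, 0.81 and 0.70, beside 0.08, -0.03 and 0.00 over all genes. Stc2, which encodes the hormone stanniocalcin 2, rose in all 3, by 5.29 ± 0.67 (SE), adjusted p = 5.24e-05 in MYC tumours. Against MYC tumours, 5 of 38 were higher in VM tumours and 3 in VIM tumours, with none lower, where 0.789% and 2.11% of all genes were higher. Among them, Egln3 differed by 3.42 ± 0.52 (SE), adjusted p = 0.00618 in VM tumours and 2.78 ± 0.52 (SE), adjusted p = 0.0171 in VIM tumours, and Fam162a, a mitochondrial gene, by 2.34 ± 0.47 (SE), adjusted p = 0.0246 and 1.88 ± 0.47 (SE), adjusted p = 0.0436. The prolyl hydroxylase gene P4ha2, which acts on collagen, differed by 2.14 ± 0.29 (SE), adjusted p = 0.00332 in VM tumours.

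Ranked by group mean, the members did not follow one order over the 10 groups. Vegfa and Adm were highest in VIM-3039 cells without Dox, Ddit4 in VIM-3039 cells with Dox, Car12 in kidney, Car9 and Ankrd37 in VM tumours and Bnip3 and Ndrg1 in VIM tumours. Many neighbours in these orders overlapped in their libraries. For Car9, the ranges of the first 3 groups, all tumours, overlapped. The last 4, all of MYC-2983 and VIM-3039 cells, overlapped from each rank to the next, but MYC-2983 libraries with and without Dox did not overlap. For Ndrg1 the 3 tumour types and kidney overlapped step by step, and all tissue libraries (27713 units or more) exceeded all cell libraries (3003 units or less). Over the 10 group means the pairs of members gave Pearson r between -0.25 (Car12 and Ddit4) and 0.82 (Ankrd37 and Ddit4), as a description over 10 points that share lines and libraries. Over the 6 cell groups, Bnip3, Vegfa and Ankrd37 ran closely together (r = 0.96 for Vegfa and Bnip3, 0.97 for Bnip3 and Ankrd37).

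By the same measure over 13353 genes, the gene most like a member was Klhl7 for Car9 (r = 0.972), Atp6v1g1 for Vegfa (0.934) and Golga7 for Adm (0.906). It was Gm16517 for Bnip3 (0.970), Ankrd33b for Ndrg1 (0.992) and Dhx32 for Ankrd37 (0.956). Cdkn1a, the p21 gene, was among the 3 genes most like Ddit4 (0.938). These are correlations across 10 group means and are given without a test.

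Epo, which encodes the hormone erythropoietin, was listed at 0 in 36 of 38 libraries. One MYC tumour read 1.41 units and 1 kidney 1.73 units, both under the floor of 3 reads in their libraries. In tissue it passed the filter of 2 animals above 0 through these libraries and was called in none of the 6 comparisons. No fold is given, since no value exceeded the floor. A level below the floor does not show that the gene was silent. Gnb2 and Pop7 overlap the Epo locus of the GENCODE annotation on the same strand.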

How the data were processed

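RNA of 38 mouse libraries was sequenced by the authors from a stranded, paired-end mRNA kit, and reads were aligned to mm9 with MapSplice, checked with Picard 1.64 and SAMtools and quantified with RSEM. The deposited signal values are RSEM gene estimates that the authors scaled to an upper quartile of 1000 in each library. They are not counts. The most frequent value below 3 units in each library was taken as 1 read. With that step, 94.1% to 95.9% of low values came out whole within 0.02 reads. The estimated depth and the floor of 3 reads follow from this step and cover counting error only.

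Groups came from the sample labels. limma 3.58.1 was fitted on log2(value + 1), with trended variance, to genes above 0 in at least 4 cell libraries or 2 animals. The fit held both conditions or lines of a comparison, or all 4 tissue groups, with no covariate, and p-values were Benjamini-Hochberg adjusted over all genes tested. Calls needed an adjusted p below 0.05 and a log2 change beyond 1. The labels do not say whether the 4 libraries of a cell condition were separate cultures, so p-values measure the spread between libraries. Fits were tested on simulated data. No pair of libraries agreed within read noise. The members and gene lists were chosen with earlier results of these data known. All members are named. From the other lists, genes averaging at least 50 units with the largest called changes are named. Correlations were restricted to genes averaging 50 units or more in some group. Some genes of the marker lists and correlations are not reported here.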

Additional observations from a re-analysis of the deposited data

Results flagged for a closer look

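Single libraries stood apart from the other 3 of their group for 3 of the 56 gene and group pairs examined, by the ratio of the gap to the range, and chance alone flags about 1 in 20. Car12 in VM-3055 cells with Dox read 1470.5 units in library 1. Adm in MYC-2983 cells without Dox read 99.4 units in library 2. Bnip3 in MYC-2983 cells with Dox read 377 units in library 3. No call on these genes in the Dox comparison of the same line was lost without that library.

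The Dox effect differed between lines for 5 of the 24 member differences tested, on the log2 scale and over all genes by limma. Adm differed by 2.03 between VM-3055 and MYC-2983 cells and by -1.82 between VIM-3039 and VM-3055 cells, since it was higher with Dox in 4 of 4 VM-3055 libraries and lower in 4 of 4 libraries of each other line. Car12 rose more in VIM-3039 cells, by 1.65 over MYC-2983 and by 2.46 over VM-3055 cells. Ndrg1 differed by 1.34 between VIM-3039 and MYC-2983 cells.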

How the results depend on the processing

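The 144 member differences were recomputed under pseudocounts of 0.1 and 10, a minimum mean of 10 units, no filter, TMM and quantile rescaling, voom on recovered reads, other sets of samples and leaving out each library. None of the 51 differences called in the main analysis turned its sign under these alternatives, 2469 recomputed values kept direction and call, 42 lost a call, 52 gained one and 44 turned sign, and the cause of these changes was not tested. Counts of members called kept within 1.5 times of the main count in 303 recomputations and moved in 23. With quantile normalization the count was 2 for Dox in MYC-2983 cells (4 in the main analysis), 1 for Dox in VIM-3039 cells (3), 5 for VM-3055 against MYC-2983 cells with Dox (3) and 2 for VM against MYC tumours (0). With TMM it was 1 for Dox in VM-3055 cells (2), 1 for Dox in VIM-3039 cells (3) and 1 for VM against MYC tumours (0). With voom it was 1 for MYC tumours against kidney (2) and 1 for VM against MYC tumours (0), where a minimum mean of 10 units also gave 1. Kidneys labelled B6 alone gave 1 for MYC tumours (2) and 1 for VM tumours (3), and each library of mouse 2983 by itself gave 4 for MYC tumours against kidney (2). Leaving out both libraries of mouse 2983, chosen after seeing the data, left 1 MYC animal, so no count is given for VM or VIM against MYC tumours. When 1 library was left out, the count ranged from 1 to 2 for MYC and 1 to 4 for VM tumours against kidney, and from 0 to 1 for VM and for VIM against MYC tumours.

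The uncalled differences that turned sign were small or noisy. TMM gave 0.011 for Bnip3 with Dox in VM-3055 cells, 0.076 for Ndrg1 with Dox in VIM-3039 cells and -0.0403 for Adm in VIM tumours against kidney, where voom gave -0.028. Quantile normalization gave 0.56 and 0.028 for Car9 in VIM-3039 against MYC-2983 cells with and without Dox, 0.00498 for Bnip3 and -0.011 for Ankrd37 in VIM-3039 against VM-3055 cells with Dox, 0.061 for the Car9 difference in Dox effect between those lines (0.022 with a pseudocount of 10), -0.0068 for Car12 in VM against MYC tumours and -0.060 for Ndrg1 in VIM against VM tumours. Each library of mouse 2983 by itself gave -0.39 for Car9 in VM against MYC tumours. Without that mouse, Ankrd37 was -0.11 in MYC tumours against kidney and Car12 -0.19 in VM against MYC tumours. Leaving out 1 library turned the sign of further uncalled differences. For Dox in VM-3055 cells the ranges were Ankrd37 -0.029 to 0.067. For VIM-3039 against MYC-2983 cells with Dox the ranges were Car12 -0.0023 to 0.035. For VIM-3039 against VM-3055 cells with Dox the ranges were Bnip3 -0.067 to 0.020. For MYC tumours against normal kidney the ranges were Car9 -1.15 to 1.37, Adm -1.77 to 0.16 and Ndrg1 -0.12 to 0.41. For VM tumours against normal kidney the ranges were Car9 -2.31 to 0.30. For VIM tumours against normal kidney the ranges were Car9 -0.67 to 1.24 and Adm -0.44 to 0.39. For VM against MYC tumours the ranges were Car9 -1.96 to 1.29 and Ddit4 -0.40 to 1.17. For VIM against MYC tumours the ranges were Car9 -0.95 to 2.23, Car12 -0.33 to 0.073, Vegfa -0.31 to 0.72, Adm -0.12 to 2.14 and Ddit4 -0.042 to 0.91. For VIM against VM tumours the ranges were Car9 -0.078 to 2.73, Bnip3 -1.15 to 0.62 and Ddit4 -0.53 to 0.82.

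Equal replicate numbers in VM-3055 and VIM-3039 libraries did not pair them, since same-numbered libraries correlated at -0.047 to 0.068. A fit with the replicate block called 2 members for Dox in VM-3055 cells, 3 for Dox in VIM-3039 cells, 3 and 4 between the lines with and without Dox and 2 for the difference in Dox effect, the counts of the main analysis. Over all genes, a pseudocount of 10 lowered calls for Dox in MYC-2983 cells from 2942 to 1936, for VM-3055 against MYC-2983 cells from 3635 to 2314 with Dox and from 3784 to 2522 without, for VIM-3039 against MYC-2983 cells with Dox from 3515 to 2198, for VIM-3039 against VM-3055 cells from 2691 to 1653 with Dox and from 3141 to 1981 without, and for the differences in Dox effect from 1389 to 675, 1416 to 674 and 918 to 458. A minimum mean of 10 units gave 2341 of the 3515, and 856, 854 and 541 for the differences in Dox effect. VM against MYC tumours had 337 calls, but 0 in a fit of those groups alone, 573 with voom and 510.0 with each library of mouse 2983 by itself. VIM against MYC tumours had 669 calls, but 1 in a fit of those groups alone and 1274 with each library of mouse 2983. VIM against VM tumours had 477 calls, but 40 in a fit of those groups alone. When 1 library was left out, these counts ranged from 122 to 527 for VM against MYC (lowest without the MYC tumour of mouse 2917, highest without mouse 3115), from 105 (without mouse 3237) to 2149 (without mouse 3233) for VIM against MYC and from 208 (without mouse 3237) to 710.0 for VIM against VM tumours. Epo had no value above the floor of 3 reads at these depths, and whether deeper sequencing would detect it was not tested.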
